A study of Homo sapiens with 12 samples.

Results

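The 9 genes described here encode the carnitine shuttle and the core enzymes of mitochondrial fatty acid oxidation: CPT1A, SLC25A20, CPT2, ACADVL, ACADM, ACADS, HADHA, HADHB and ECHS1. They were chosen by gene name, with their measured values already known, from the 60649 genes of the deposited tables, and all 9 were present and passed the filter on low counts. The samples were 12 libraries from tumours grown as xenografts of Cal33, an established line of human squamous carcinoma of the head and neck, and messenger RNA was sequenced in 4 groups of 3 libraries. The tumours labelled smTEADi had received SW-682, a small molecule inhibitor of TEAD, and were set against tumours given Vehicle. The tumours labelled pTEADi (DOX+), in which doxycycline (DOX) switches on an inhibitor of TEAD called pTEADi, were set against the Control (DOX-) tumours, so the inhibitor and doxycycline itself cannot be told apart. TEAD proteins are the DNA-binding partners of the co-activators YAP and TAZ. All tumours came from 1 cell line grown in a host animal, and dose, duration and the number of animals are not given in the sources used here.

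Long-chain fatty acids cross into mitochondria bound to carnitine. CPT1 on the outer membrane makes the acylcarnitine and is the controlled entry step, blocked by malonyl-CoA. The carrier SLC25A20 takes the acylcarnitine across the inner membrane and CPT2 returns the acyl group to coenzyme A. Acyl-CoA dehydrogenases, hydratases, hydroxyacyl-CoA dehydrogenases and thiolases then shorten the chain in repeated rounds, with PPAR nuclear receptors as well-known activators of the genes. CPT1A is the liver-type CPT1 and the form found most widely outside muscle.

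Library totals ran from 13576494 to 15433679 expected counts, with 10 or more counts for 14536 to 14873 genes. The 9 genes had 37 to 8243 counts per library, so counting noise was largest for SLC25A20. Levels are CPM, counts scaled to library size, with TMM factors over all 12 libraries, and fold changes are log2 values ± SE from edgeR's quasi-likelihood fit of the whole table. TEAD output was checked with CCN1 (CYR61), a standard YAP/TAZ target. CCN1 averaged 12.5 ± 3.54 CPM in smTEADi and 35.9 ± 3.60 CPM in Vehicle tumours, and 23.8 ± 6.77 CPM in pTEADi and 63.7 ± 17.3 CPM in Control tumours (SD, n = 3 each). Its log2 fold change was -1.52 ± 0.20 with SW-682 and -1.42 ± 0.21 with pTEADi (adjusted p = 0.0365 and 0.000624). Of the list of TEAD-regulated genes, 5 of 10 tested fell with SW-682 and 9 of 11 with pTEADi, against 3.48% and 13.6% of all genes tested, and none rose. The list was chosen with earlier results of these data known, so these counts describe it and are not independent evidence. DOCK5 fell by 0.72 ± 0.13 and 0.93 ± 0.11 (adjusted p = 0.0365 and 0.000188), and AMOTL2 fell by 0.50 ± 0.10 with pTEADi (adjusted p = 0.00369) and had -0.26 ± 0.09 with SW-682 (adjusted p = 0.119). With SW-682, leaving out 1 library lost the CCN1 and DOCK5 calls in 3 of 6 fits each. Their values stayed at -1.71 to -1.32 and -0.81 to -0.63. All 8 markers listed for the squamous tumour (KRT5, KRT14, KRT17, KRT6A, TP63, EPCAM, CDH1 and ITGB4) were detected, with most of the signal from the keratins. They summed to 39374 to 56679 CPM in smTEADi and 53204 to 72044 CPM in Vehicle, and to 62206 to 74809 CPM in pTEADi and 64221 to 76818 CPM in Control libraries. The 8 markers did not move together: log2 values were above 0 for 1 with SW-682 and for 2 with pTEADi. EPCAM averaged 9.8 ± 1.5 CPM in smTEADi and 21.0 ± 4.9 CPM in Vehicle tumours. Its pTEADi and Control means were 9.9 ± 1.0 and 21.8 ± 3.0 CPM. CDH1 averaged 230 ± 27.7 CPM in smTEADi and 185 ± 18.4 CPM in Vehicle tumours. Its pTEADi and Control means were 180 ± 11.5 and 151 ± 22.1 CPM. In bulk tissue, fewer cells of a type and less RNA per cell cannot be told apart.

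CPT1A was the one of the 9 genes that passed the threshold with both inhibitors in opposite directions. Relative to Vehicle it was lower with SW-682, at 0.543 times the mean level, and relative to Control it was higher with pTEADi, at 1.37 times. Among 14384 genes tested in both comparisons, 728 (5.06%) passed an adjusted p of 0.05 in both. Of these, 257 were higher in both and 470 were lower in both. CPT1A was the remaining 1 (0.00695% of the genes tested), and this pattern is why it was chosen for description. HADHA, HADHB and ECHS1 also had log2 values below 0 with SW-682 and above 0 with pTEADi, with smaller sizes and without passing in both.

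CPT1A lies on chr11:68754620-68844410 (GRCh38, minus strand), and its reference (MANE) transcript has 19 exons. It had 14, 12.2 and 15.4 CPM in the smTEADi libraries, against 26.1, 23.9 and 26.6 CPM in the Vehicle libraries. It had 20.04, 21.8 and 22.9 CPM in the pTEADi libraries, against 14.4, 18.2 and 14.5 CPM in the Control libraries. Neither pair of groups overlapped: every smTEADi library was below every Vehicle library, and every pTEADi library was above every Control library. The log2 fold change was -0.88 ± 0.13 with SW-682 and 0.46 ± 0.13 with pTEADi (adjusted p = 0.0365 and 0.0224). The difference between these effects, pTEADi minus SW-682 in 1 fit of all libraries, was 1.34 ± 0.18. It passed the threshold by a small margin (adjusted p = 0.0451). CPT1A was one of 2 genes of 15460 (0.0129%) that passed, the other being CEMIP. Leaving out 1 library at a time kept the direction of all 3 values, at -0.97 to -0.79, 0.39 to 0.57 and 1.26 to 1.46. CPT1A no longer passed with SW-682 without smTEADi 3 (-0.97), Vehicle 1 (-0.87) or Vehicle 3 (-0.85), where no gene did. It no longer passed with pTEADi without pTEADi 2 (0.46), pTEADi 3 (0.42), Control 1 (0.39) or Control 3 (0.41). The difference passed without smTEADi 1, smTEADi 3, Vehicle 2 or Control 2 and not without any of the other 8 libraries.

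**Figure D1:**
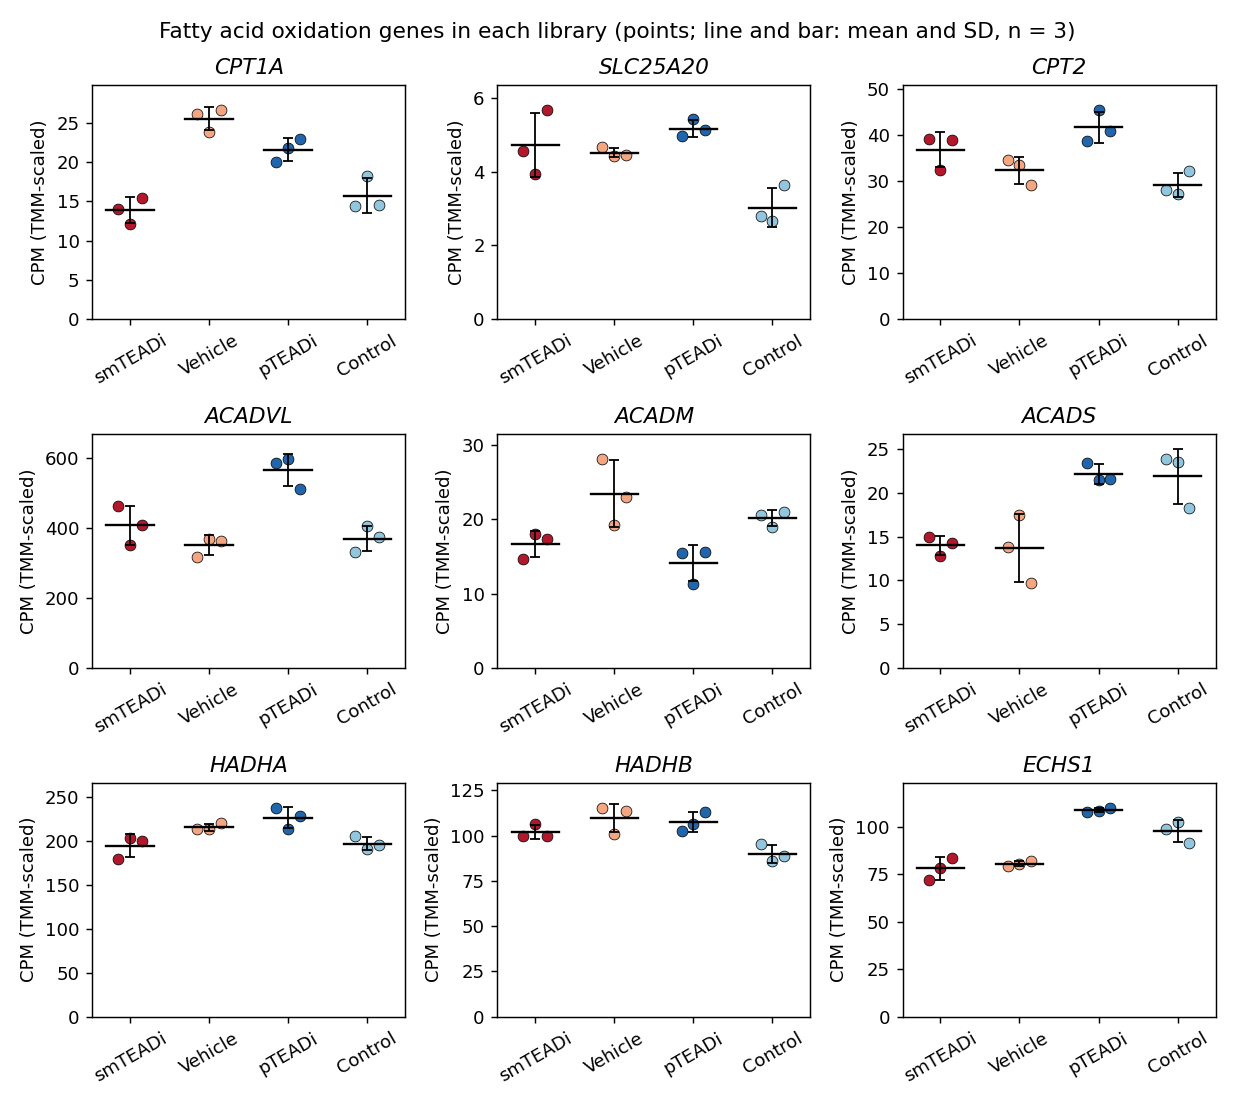
TMM-scaled CPM of the 9 genes in each library, 1 panel per gene, with points for libraries and a line and bar for the mean and SD (n = 3). In the CPT1A panel the Vehicle libraries are the highest, at 23.9 to 26.6 CPM, and the smTEADi and Control libraries share the lowest levels.

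The order of the CPT1A group levels was Vehicle (25.5 ± 1.46 CPM), pTEADi (21.6 ± 1.43 CPM), Control (15.7 ± 2.18 CPM) and smTEADi (13.9 ± 1.63 CPM; SD, n = 3 each). The ranges of neighbours in this order did not overlap except for Control and smTEADi. The control groups were at different levels: Control was below Vehicle by a log2 difference of -0.70 ± 0.13. Between Control and Vehicle, 35.1% of all genes passed the threshold, 2 of the 9 higher and 3 lower in Control. These groups belong to separate experiments with a table each, so the experiment and the kind of control cannot be told apart.

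The promoters are shown because CPT1A passed the threshold in opposite directions, because SLC25A20 and CPT2 are the other steps of its shuttle, and because HADHA and HADHB share a start region. The CPT1A window is the 300 bases before the start of its MANE transcript, read from the GRCh38 genome. The others are RefSeq promoter windows (GRCh38.p14, 250 bases before to 50 after the start). Each is written 5′ to 3′ on the gene's strand, with capitals marking matches on either strand to GGAATG, the core of the TEAD site, or to GGGCGG, the GC box bound by SP proteins.
CPT1A, chr11:68841917-68842216, minus strand: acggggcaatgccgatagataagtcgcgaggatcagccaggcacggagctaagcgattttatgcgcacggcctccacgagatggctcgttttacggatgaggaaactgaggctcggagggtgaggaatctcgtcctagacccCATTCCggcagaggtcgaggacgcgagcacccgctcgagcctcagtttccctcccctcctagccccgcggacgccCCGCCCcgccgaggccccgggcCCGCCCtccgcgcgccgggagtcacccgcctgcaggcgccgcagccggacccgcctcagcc
SLC25A20, chr3:48898833-48899132, minus strand: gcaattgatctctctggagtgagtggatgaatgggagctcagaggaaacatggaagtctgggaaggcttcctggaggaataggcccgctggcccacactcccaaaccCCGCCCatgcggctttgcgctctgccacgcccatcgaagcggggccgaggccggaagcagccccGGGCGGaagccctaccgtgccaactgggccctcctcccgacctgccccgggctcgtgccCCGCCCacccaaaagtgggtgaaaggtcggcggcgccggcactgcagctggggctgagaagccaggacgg
CPT2, chr1:53196574-53196873, plus strand: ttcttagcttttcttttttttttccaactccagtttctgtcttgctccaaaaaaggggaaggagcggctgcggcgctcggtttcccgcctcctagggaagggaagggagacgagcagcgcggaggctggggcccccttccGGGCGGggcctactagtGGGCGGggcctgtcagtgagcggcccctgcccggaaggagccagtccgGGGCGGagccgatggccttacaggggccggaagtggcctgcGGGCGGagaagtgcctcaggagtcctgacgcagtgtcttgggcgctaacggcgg
HADHA, chr2:26244583-26244882, minus strand: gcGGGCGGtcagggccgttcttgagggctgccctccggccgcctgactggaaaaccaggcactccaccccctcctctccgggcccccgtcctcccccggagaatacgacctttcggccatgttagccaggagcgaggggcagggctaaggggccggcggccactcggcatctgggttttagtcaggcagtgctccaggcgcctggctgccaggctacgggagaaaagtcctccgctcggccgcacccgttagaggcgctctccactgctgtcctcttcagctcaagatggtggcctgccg
HADHB, chr2:26244689-26244988, plus strand: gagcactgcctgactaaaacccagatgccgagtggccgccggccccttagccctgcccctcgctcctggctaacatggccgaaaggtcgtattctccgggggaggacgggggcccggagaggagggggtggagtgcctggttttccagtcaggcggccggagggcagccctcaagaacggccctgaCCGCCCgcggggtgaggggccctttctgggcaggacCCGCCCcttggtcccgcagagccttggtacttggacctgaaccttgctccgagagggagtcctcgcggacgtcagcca

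The CPT1A window held 1 match to GGAATG, at chr11:68842069-68842074, which begins 158 bases before the start, and 2 GC boxes, 83 and 61 bases before it. GGAATG was present in 14% of the 35116 RefSeq promoter windows and GGGCGG in 45.0%. RefSeq windows at the MANE start were found for the 8 other genes. All 8 held a GC box and none held GGAATG, and their GC content was 64.0% to 78.0%. The RefSeq window listed for CPT1A sits at another start, 2361 bases upstream of the MANE start, and held neither motif. AGGTCA, the nuclear receptor site (13.8% of windows), its repeat with 1 base between copies, bound by PPAR with RXR (0.0228%), and CACGTG (7.26%) were also searched on both strands, with no match in the windows of the 9 genes. These are letter matches in short windows and show nothing about binding. HADHA and HADHB are read in opposite directions from starts 307 bases apart, and their windows share 194 bases.

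The other carnitine shuttle genes had smTEADi levels that overlapped Vehicle and, like CPT1A, pTEADi levels above Control. SLC25A20, the carnitine-acylcarnitine carrier (chr3:48856926-48898904, minus strand), was the least abundant of the 9 in CPM. It had 4.57, 3.95 and 5.68 CPM in smTEADi against 4.67, 4.44 and 4.46 CPM in Vehicle libraries. It had 4.97, 5.43 and 5.13 CPM in pTEADi against 2.79, 2.66 and 3.63 CPM in Control libraries. The smTEADi and Vehicle ranges overlapped, whereas all pTEADi libraries were above all Control libraries. The log2 fold changes were 0.06 ± 0.21 with SW-682 and 0.77 ± 0.22 with pTEADi, the largest increase among the 9 genes. The pTEADi value passed in the fit of all 6 libraries and without Control 3, and no longer did without any other single library (0.68 to 0.92 over all omissions).

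CPT2, which releases acyl-CoA inside the mitochondrion (chr1:53196792-53214197, plus strand), showed the same arrangement. Its levels were 39.0, 32.4 and 38.9 CPM in smTEADi against 34.6, 33.4 and 29.0 CPM in Vehicle libraries. They were 38.7, 45.4 and 40.8 CPM in pTEADi against 28.1, 27.2 and 32.1 CPM in Control libraries. Again the SW-682 groups overlapped and the pTEADi groups did not. Log2 fold changes were 0.18 ± 0.12 with SW-682 and 0.51 ± 0.11 with pTEADi. CPT2 shares 1151 exonic bases with an antisense long non-coding RNA and 99 with CZIB on the opposite strand, and 7 of its 12 values were not whole, so some of its reads were divided among genes by the estimate.

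Because ratios of counts within a library do not depend on library scaling, CPT1A was set against CPT2 and against CPT1B, the muscle-type CPT1. The CPT1A to CPT2 ratio was 0.359 to 0.396 in smTEADi and 0.716 to 0.917 in Vehicle libraries. It was 0.480 to 0.561 in pTEADi and 0.453 to 0.670 in Control libraries, which overlapped. The CPT1A to CPT1B ratio was 0.334 to 0.468 in smTEADi and 0.666 to 0.871 in Vehicle libraries, and 0.429 to 0.541 in pTEADi and 0.317 to 0.373 in Control libraries. Relative to CPT1B, CPT1A was thus lower in every smTEADi library and higher in every pTEADi library than in the matching control. Relative to CPT2 this held for SW-682 alone. CPT1B itself changed by 0.05 ± 0.12 and -0.00 ± 0.10 (adjusted p = 0.81 and 0.98). In counts, without allowance for transcript length, CPT1B was above CPT1A in every library.

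**Figure D2:**
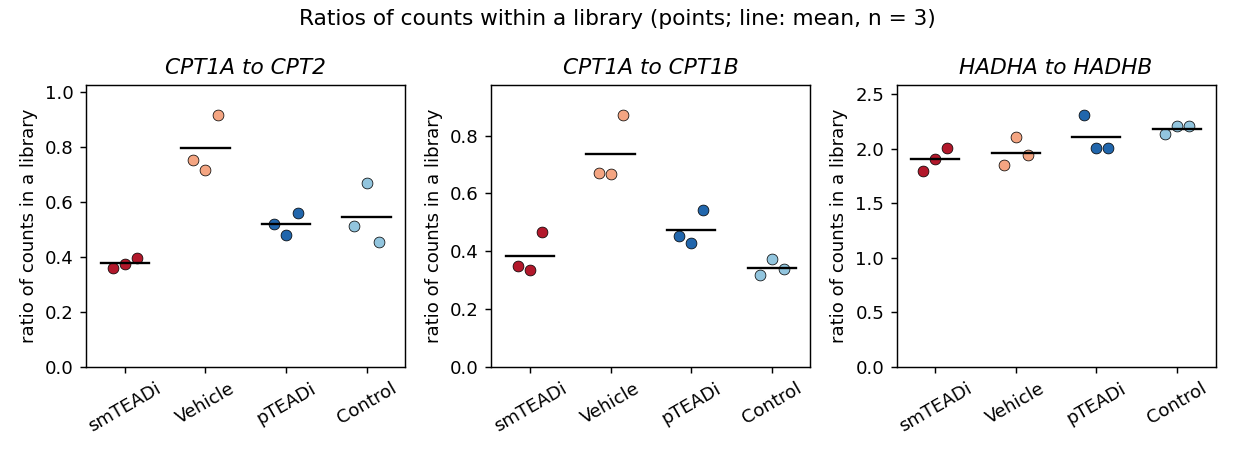
Ratios of expected counts within each library for CPT1A to CPT2, CPT1A to CPT1B and HADHA to HADHB, with points for libraries and a line for the mean (n = 3). The CPT1A ratios are highest in Vehicle libraries, and the HADHA to HADHB ratio stays between 1.80 and 2.31 in all 12 libraries.

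The acyl-CoA dehydrogenases, which open each round of chain shortening, differed from one another. ACADVL acts on very long chains (chr17:7217125-7225266, plus strand). It had 463, 350 and 407 CPM in smTEADi against 317, 369 and 362 CPM in Vehicle libraries. It had 585, 597 and 511 CPM in pTEADi against 331, 404 and 372 CPM in Control libraries. The pTEADi libraries were the highest of all 12, and the other 3 groups overlapped. The log2 fold changes were 0.22 ± 0.13 with SW-682 and 0.61 ± 0.10 with pTEADi. ACADVL shares 49 exonic bases with DLG4 on the opposite strand.

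ACADM, the medium-chain enzyme (chr1:75724431-75787575, plus strand), was the single gene of the 9 with a log2 value below 0 with pTEADi. Its levels were 14.7, 18.0 and 17.3 CPM in smTEADi against 28.1, 19.2 and 23.0 CPM in Vehicle libraries. They were 15.5, 11.3 and 15.6 CPM in pTEADi against 20.6, 18.9 and 21.0 CPM in Control libraries. Both inhibited groups lay wholly below their controls, and the log2 fold changes were nearly equal, -0.49 ± 0.16 with SW-682 and -0.51 ± 0.14 with pTEADi. The SW-682 value did not pass the threshold; it passed without Vehicle 2 (-0.62). The pTEADi value no longer passed without pTEADi 2 (-0.36) or Control 1 (-0.50). In 7 of 12 libraries its value was not whole, and it overlaps RABGGTB on the same strand over 157 exonic bases and the pseudogene DLSTP1 on the opposite strand over 1354. The ratio of ACADVL to ACADM counts was 19.4 to 31.7 in smTEADi and 11.3 to 19.2 in Vehicle libraries, and 32.8 to 52.8 in pTEADi and 16.1 to 21.3 in Control libraries.

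ACADS, the short-chain enzyme (chr12:120725774-120740008, plus strand), had overlapping levels in both comparisons. It had 15.0, 12.8 and 14.3 CPM in smTEADi against 13.8, 17.5 and 9.74 CPM in Vehicle libraries. It had 23.4, 21.4 and 21.6 CPM in pTEADi against 23.9, 23.5 and 18.3 CPM in Control libraries. Its log2 fold changes were 0.03 ± 0.20 and 0.02 ± 0.13. Its main contrast was between experiments: Control was above Vehicle by 0.68 ± 0.18, with no overlap.

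The trifunctional protein carries out the later steps for long chains, with HADHA as its alpha subunit (hydratase and hydroxyacyl-CoA dehydrogenase) and HADHB as its beta subunit (thiolase). HADHA (chr2:26190635-26244672, minus strand) had 179.5, 204 and 200.03 CPM in smTEADi against 213, 213 and 219.9 CPM in Vehicle libraries. It had 238, 214 and 228 CPM in pTEADi against 205, 190.2 and 195 CPM in Control libraries. The smTEADi libraries were all lower and the pTEADi libraries all higher than their controls, by small amounts (log2 -0.15 ± 0.09 and 0.20 ± 0.08).

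HADHB (chr2:26243170-26290465, plus strand) had 99.6, 107 and 99.7 CPM in smTEADi against 115, 101.0 and 113 CPM in Vehicle libraries. It had 103, 106 and 113 CPM in pTEADi against 95.5, 86.0 and 88.5 CPM in Control libraries. The SW-682 groups overlapped and the pTEADi groups did not, with log2 fold changes of -0.11 ± 0.10 and 0.25 ± 0.08. The pTEADi value passed the threshold by a small margin and no longer did without any 1 of the 6 libraries (0.22 to 0.29). The HADHA to HADHB ratio was 1.80 to 2.01 in smTEADi, 1.85 to 2.11 in Vehicle, 2.01 to 2.31 in pTEADi and 2.14 to 2.21 in Control libraries, so the subunit genes kept similar proportions.

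ECHS1, the short-chain enoyl-CoA hydratase (chr10:133362485-133373354, minus strand), had 72.0, 78.6 and 83.8 CPM in smTEADi against 79.4, 80.5 and 81.8 CPM in Vehicle libraries. It had 108, 109 and 110.1 CPM in pTEADi against 99.1, 103 and 91.7 CPM in Control libraries. The SW-682 groups overlapped. The pTEADi libraries lay just above the Control libraries, with a log2 fold change of 0.15 ± 0.08 that did not pass the threshold, against -0.04 ± 0.09 with SW-682.

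Over the 9 genes, SW-682 gave 1 call, CPT1A lower, while 5.50% of 14829 tested genes were called (2.02% higher and 3.48% lower). With pTEADi, 5 genes were called higher (CPT1A, SLC25A20, CPT2, ACADVL and HADHB) and 1 lower (ACADM), while 26.3% of 14705 tested genes were called (12.7% higher and 13.6% lower). The groups did not overlap for 3 of 9 genes with SW-682, all lower (CPT1A, ACADM and HADHA), and for 33.0% of all genes (15.7% higher and 17.3% lower). With pTEADi they did not overlap for 7 higher and 1 lower of 9, and for 42.0% of all genes (20.3% higher and 21.7% lower). The median log2 fold change of the 9 was -0.04 with SW-682 and 0.25 with pTEADi, against 0.01 and -0.00 over all genes tested. Since the genes were chosen with these values known, the counts describe them and support no statement about the pathway. The count of pTEADi calls depended on single libraries. It was 2 higher without pTEADi 2, pTEADi 3 or Control 1, and 3 higher without pTEADi 1, Control 2 or Control 3. CPT2 and ACADVL were the genes called higher in each of these fits.

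**Figure D3:**
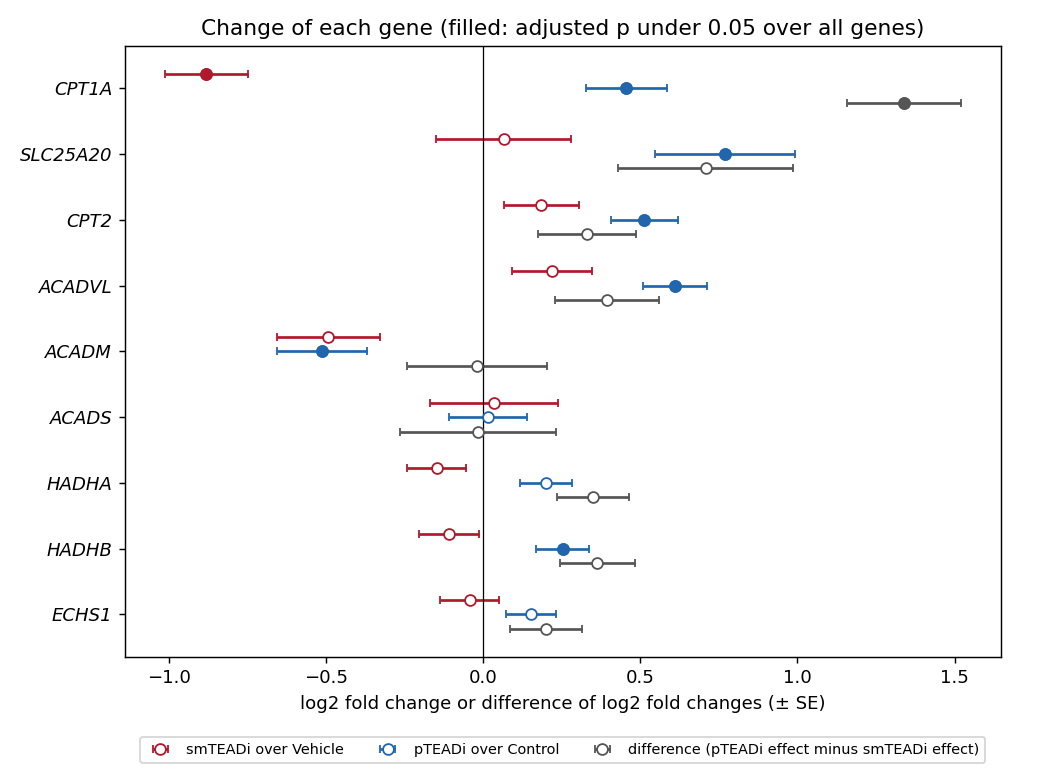
Log2 fold change with SE of each gene for smTEADi over Vehicle, pTEADi over Control and the difference of these effects (pTEADi minus smTEADi). Filled points passed an adjusted p of 0.05 over all genes tested; CPT1A is the gene with filled points on both sides of 0.

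**Figure D4:**
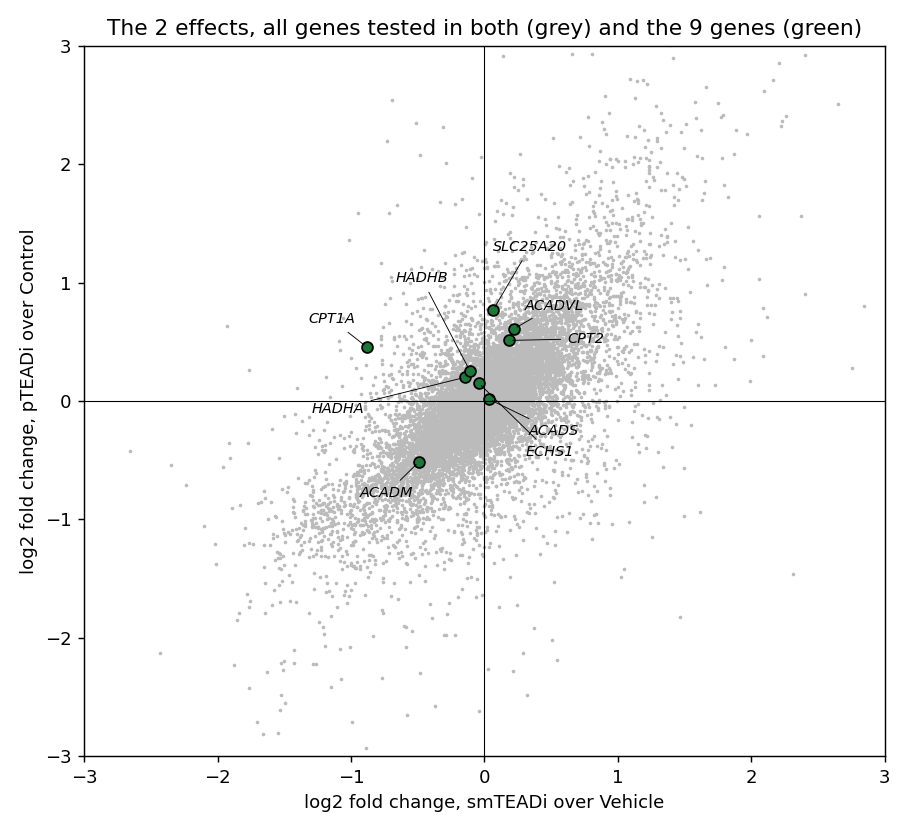
Log2 fold change with SW-682 (x axis) against that with pTEADi (y axis) for 14384 genes tested in both (grey) and the 9 genes (green); 23 genes lie beyond the axes, which end at 3 and -3. CPT1A lies at -0.88 and 0.46, away from the other 8 genes.

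The differences between effects were 0.71 ± 0.28 for SLC25A20, 0.33 ± 0.16 for CPT2, 0.39 ± 0.17 for ACADVL, 0.35 ± 0.11 for HADHA, 0.36 ± 0.12 for HADHB and 0.20 ± 0.11 for ECHS1. For ACADM and ACADS they were -0.02 ± 0.22 and -0.02 ± 0.25. None of these 8 passed the threshold over all genes, which does not show that the effects were alike.

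Levels of different genes were compared per kilobase of MANE transcript. By that length ACADVL was highest in every group, at 186 ± 25.8 CPM per kilobase in smTEADi, 160.0 ± 13.0 in Vehicle, 258 ± 21.1 in pTEADi and 169 ± 16.6 in Control tumours. HADHA and ECHS1 followed, at 61.2 to 85.3 CPM per kilobase as group means, and HADHB came next at 45.1 to 55.0. CPT1A was near the bottom, at 2.65 ± 0.31 in smTEADi, 4.87 ± 0.28 in Vehicle, 4.12 ± 0.27 in pTEADi and 3.001 ± 0.42 in Control tumours. SLC25A20 was similar, at 1.70 to 2.91 as group means. By this length CPT1A and SLC25A20 were the lowest of the 9 in all groups, and CPT2 was at 10.8 to 15.4. The order depended on the length used. Over all annotated exons, ACADM became the lowest in all 4 groups and CPT2, at 2.89 to 4.12, came close to CPT1A, at 2.11 to 3.88. In Vehicle libraries CPT1A was then above CPT2 (3.88 against 3.20), and in Control libraries ECHS1 and ACADVL were level at the top (76.62 and 76.58).

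The rest of the mitochondrial pathway is a list of 18 other genes (17 tested). With pTEADi, 4 rose and 2 fell, while 26.3% of all genes tested were called, and with SW-682 none of the 17 passed, while 5.50% of all genes were called. ETFDH, which passes electrons from the dehydrogenases to ubiquinone, averaged 28.8 ± 1.24 CPM in pTEADi and 18.8 ± 2.89 CPM in Control tumours (log2 0.61 ± 0.13, adjusted p = 0.00424). ACAD11 rose by 0.44 ± 0.10 (adjusted p = 0.00778), and ETFB and DECR1 were the others that rose. HADH, the short-chain hydroxyacyl-CoA dehydrogenase, fell by 0.36 ± 0.09 (adjusted p = 0.0156) and ECI2, an enoyl-CoA isomerase, fell by 0.42 ± 0.12 (adjusted p = 0.0244). With SW-682 the values were 0.39 ± 0.11 for ETFDH and -0.33 ± 0.12 for HADH (adjusted p = 0.0708 and 0.116). For ACAD11 and ECI2 they were 0.49 ± 0.13 and -0.45 ± 0.17 with SW-682 (adjusted p = 0.0534 and 0.120). The brain-type CPT1C had log2 values of 0.99 ± 0.31 and 0.66 ± 0.30 (adjusted p = 0.0811 and 0.125), and the thiolase ACAA2 -0.44 ± 0.40 and 0.88 ± 0.39 (adjusted p = 0.498 and 0.125). ACAA2 was at a low level, 0.574 to 1.95 CPM over all libraries. HADH no longer passed without pTEADi 1, pTEADi 2 or Control 1 (-0.38 to -0.34 over all omissions), nor did ECI2 in 4 of 6 omissions (-0.50 to -0.34). The list's median was 0.05 with SW-682 and 0.19 with pTEADi.

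Peroxisomal oxidation, which shortens very long and branched chains, had 7 of 13 tested genes higher with pTEADi and none lower, beside 12.7% of all genes called higher. They included CROT, the peroxisomal carnitine acyltransferase, at 0.83 ± 0.11 (adjusted p = 0.000297), AMACR, the racemase for branched chains, at 0.71 ± 0.12 (adjusted p = 0.00124), and HSD17B4, the multifunctional enzyme of the middle steps, at 0.58 ± 0.11 (adjusted p = 0.00294). CROT averaged 43.7 ± 2.82 CPM in pTEADi and 24.5 ± 2.68 CPM in Control tumours, without overlap. With SW-682 none of the 13 passed, beside 5.50% of all genes, and CROT had 0.25 ± 0.14 (adjusted p = 0.271). HSD17B4 had 0.30 ± 0.10 and AMACR 0.30 ± 0.14 with SW-682 (adjusted p = 0.0841 and 0.197). Of the 13, 4 lay wholly higher and 1 wholly lower with SW-682, beside 15.7% and 17.3% of all genes. The median over the list was 0.20 with SW-682 and 0.37 with pTEADi.

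Among genes for fatty acid uptake and activation, 3 of 13 tested rose and 1 fell with SW-682 (5.50% of all genes were called), and 4 rose and 2 fell with pTEADi (26.3% of all genes). CD36, a membrane receptor for long-chain fatty acids, rose with both. It had 129, 86.1 and 103 CPM in smTEADi against 44.1, 54.8 and 28.8 CPM in Vehicle libraries, and 36.8, 50.1 and 49.8 CPM in pTEADi against 10.5, 8.40 and 14.8 CPM in Control libraries. Neither pair overlapped, and the log2 fold changes were 1.32 ± 0.23 and 2.02 ± 0.19 (adjusted p = 0.0365 and 4.31e-05). ACSL1, an acyl-CoA synthetase that supplies CPT1 with its substrate, rose by 0.66 ± 0.13 and 0.68 ± 0.14 (adjusted p = 0.0371 and 0.00525). The acetyl-CoA synthetase ACSS1 rose by 0.48 ± 0.11 and 1.07 ± 0.18 (adjusted p = 0.0449 and 0.00125). ACSL4, which activates polyunsaturated fatty acids, fell with pTEADi by 0.72 ± 0.12 (adjusted p = 0.000969) and had -0.77 ± 0.20 with SW-682 (adjusted p = 0.0543). The acyl-CoA synthetases thus went both ways, and SLC27A4 rose with pTEADi while SLC27A3 fell with SW-682. With SW-682 the calls for ACSS1 and SLC27A3 were lost without any 1 library (0.40 to 0.55 and -0.62 to -0.44), and that for CD36 was lost without smTEADi 3, Vehicle 1 or Vehicle 3 (1.10 to 1.54 over all omissions). That for ACSL1 was also lost without smTEADi 2 (0.56 to 0.80).

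**Figure D5:**
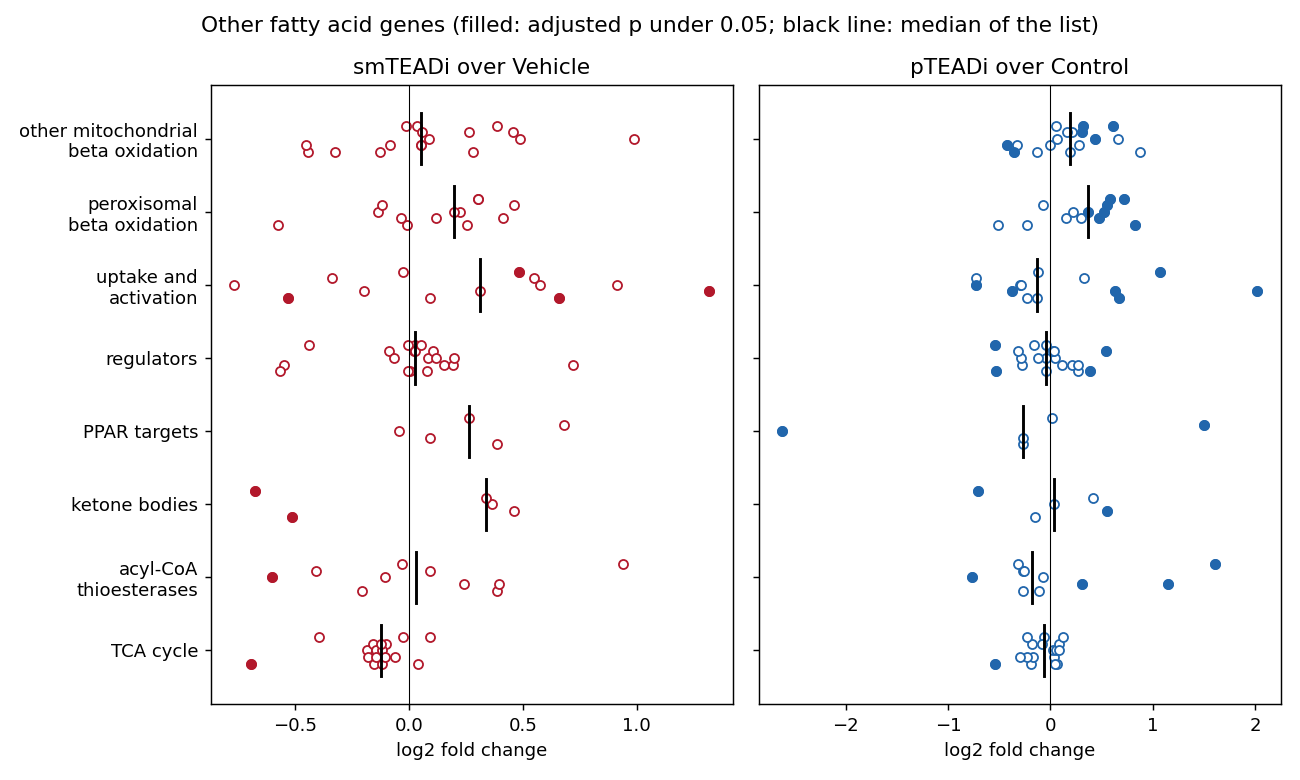
Log2 fold changes of tested genes in 8 lists of fatty acid genes with SW-682 (left) and pTEADi (right); the axes differ in range, filled points passed an adjusted p of 0.05 and black lines are list medians. The peroxisomal list has 7 filled points with pTEADi, all above 0, and none with SW-682.

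Of known regulators of CPT1A and of the pathway, 4 of 19 tested passed with pTEADi and none of 20 with SW-682, near the 26.3% and 5.50% of all genes. PPARA, the nuclear receptor that activates fatty acid oxidation genes, averaged 41.2 ± 5.44 CPM in smTEADi and 37.1 ± 3.86 CPM in Vehicle tumours, and 29.7 ± 4.34 CPM in pTEADi and 27.4 ± 2.15 CPM in Control tumours. Its log2 fold changes were 0.15 ± 0.13 and 0.11 ± 0.12 (adjusted p = 0.463 and 0.538). PPARD changed by 0.12 ± 0.17 and -0.28 ± 0.12 (adjusted p = 0.683 and 0.104), and PPARG reached at most 0.343 CPM in any library. The co-activator PPARGC1A averaged 10.9 ± 2.83 CPM in smTEADi and 11.6 ± 4.33 CPM in Vehicle tumours, and 2.52 ± 0.62 CPM in pTEADi and 3.15 ± 0.42 CPM in Control tumours, so its larger contrast was between experiments. ACACA and ACACB, which make the CPT1 inhibitor malonyl-CoA, passed in neither comparison. MLYCD, which degrades malonyl-CoA, rose with pTEADi by 0.55 ± 0.14 (adjusted p = 0.0115) and changed by 0.11 ± 0.16 with SW-682 (adjusted p = 0.703). The 4 regulators called with pTEADi were MLYCD and RXRA, which rose, and NRIP1 and PRKAG2, which fell. MLYCD no longer passed without pTEADi 2 or Control 1 (0.49 to 0.64 over all omissions), NRIP1 without pTEADi 2 (-0.43), and RXRA and PRKAG2 failed in 4 and 5 of 6 omissions (0.30 to 0.49 and -0.65 to -0.42).

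PPAR targets outside the pathway did not move in one direction. With pTEADi, 1 of 5 tested rose (UCP2) and 1 fell (ANGPTL4), and with SW-682 none of 5 passed, beside 26.3% and 5.50% of all genes called. UCP2 was at a low level, averaging 4.21 ± 0.70 CPM in pTEADi and 1.49 ± 0.77 CPM in Control tumours. ANGPTL4, a secreted inhibitor of lipoprotein lipase, had 43.4, 39.1 and 39.3 CPM in pTEADi against 229, 436 and 83.6 CPM in Control libraries (log2 -2.62 ± 0.42, adjusted p = 0.000971). PDK4, a common PPAR target, was at 0 in all 12 libraries. Of the ketone body list, 1 of 5 tested genes rose with pTEADi (BDH1), beside 12.7% of all genes, and SLC16A1, a monocarboxylate carrier, fell with both inhibitors (-0.68 ± 0.17 and -0.71 ± 0.10, adjusted p = 0.0483 and 0.000582). ACAT1 fell with SW-682 by 0.52 ± 0.12 (adjusted p = 0.0464). With SW-682 neither call was stable to single libraries: ACAT1 was lost without any 1 of 6 (-0.58 to -0.42) and SLC16A1 without 5 of 6 (-0.91 to -0.54).

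Thioesterases, which free fatty acids from coenzyme A, were mixed. With pTEADi, 3 of 10 rose (ACOT11, THEM5 and ACOT8) and 1 fell, beside 26.3% of all genes called, and with SW-682 1 of 10 fell, beside 3.48% of all genes called lower. ACOT9, a mitochondrial member, fell with both, by 0.60 ± 0.13 and 0.77 ± 0.12 (adjusted p = 0.0413 and 0.000736). The TCA cycle takes up the acetyl-CoA made. Of the 17 genes on its list, 16 did not pass in either comparison, beside 5.50% and 26.3% of all genes called. The exception was SDHA, the flavoprotein subunit of succinate dehydrogenase. It averaged 55.2 ± 2.21 CPM in smTEADi and 89.5 ± 3.87 CPM in Vehicle tumours, and 74.1 ± 8.67 CPM in pTEADi and 107 ± 6.13 CPM in Control tumours, and fell by 0.70 ± 0.09 and 0.54 ± 0.10 (adjusted p = 0.0365 and 0.00221). With SW-682 the SDHA call was lost without smTEADi 3, Vehicle 1 or Vehicle 3 (-0.73 to -0.67 over all omissions) and the ACOT9 call in 4 of 6 omissions (-0.72 to -0.52). With pTEADi the ACOT8 call was lost without pTEADi 1, pTEADi 2 or Control 1 (0.29 to 0.34). None of the genes on these lists passed the test of the difference between inhibitors.

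Host tissue can also express these genes, and whether mouse reads were removed is not given in the sources used here. Of 10 adipocyte markers, 5 were at 0 in all libraries, ADIPOQ and LEP among them. The list summed to 46.8 to 78.3 CPM in smTEADi and 40.7 to 44.7 CPM in Vehicle, and to 63.0 to 73.2 CPM in pTEADi and 45.5 to 58.1 CPM in Control libraries. Most of it came from FABP4 (10.1 to 63.1 CPM) and CFD (9.58 to 54.0 CPM), which is also among the genes with a CPT1A-like pattern given at the end. Of 8 skeletal muscle markers measured, CKM was at 0 in all libraries, and the sum was 9.27 to 20.2 CPM in smTEADi and 6.41 to 20.1 CPM in Vehicle, and 22.8 to 25.6 CPM in pTEADi and 6.43 to 24.9 CPM in Control libraries. The endothelial list, mainly VWF, summed to 36.1 to 64.6 CPM in smTEADi and 15.9 to 33.2 CPM in Vehicle, and to 30.7 to 42.1 CPM in pTEADi and 13.0 to 21.1 CPM in Control libraries. The leukocyte list summed to 35.7 to 55.9 CPM in smTEADi and 34.9 to 44.7 CPM in Vehicle, and to 35.9 to 42.2 CPM in pTEADi and 47.4 to 72.8 CPM in Control libraries. The adipocyte and endothelial sums were higher with both inhibitors, and the leukocyte sum was lower with pTEADi without overlap. The endothelial sum rested on VWF, as KDR was at 0 and PECAM1, CDH5, TEK and ESAM had at most 5 counts in any library. Most of the leukocyte sum came from CD68 (5.04 to 37.1 CPM) and CD74 (11.2 to 28.0 CPM), while PTPRC had at most 1 count. Of 5 leukocyte genes tested with pTEADi, 2 were called lower and none higher, beside 13.6% of all genes called lower. Fibroblast markers summed to 85.5 to 91.6 CPM in smTEADi and 76.7 to 97.2 CPM in Vehicle libraries. Their sums were 99.7 to 138 CPM in pTEADi and 101 to 119 CPM in Control libraries, and both pairs overlapped. Most of the fibroblast sum came from COL1A1 (69.4 to 133 CPM). COL3A1 was at 0 in all libraries and COL1A2 had at most 10 counts. The adipocyte markers did not move together. FABP4 averaged 44.2 ± 16.4 CPM in smTEADi and 23.5 ± 3.44 CPM in Vehicle, but 12.5 ± 3.34 CPM in pTEADi and 15.3 ± 3.77 CPM in Control tumours. CFD averaged 10.8 ± 1.25 CPM in smTEADi and 14.9 ± 2.36 CPM in Vehicle, but 46.6 ± 6.42 CPM in pTEADi and 30.4 ± 2.62 CPM in Control tumours. The part of these markers in the results, CPT1A and CD36 included, was not tested.

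The genes whose pattern was most like that of CPT1A were ranked among 10628 protein-coding genes with at least 5 CPM on average. Likeness was the root mean square difference over the 12 libraries of log2(CPM + 1) centred on the control libraries of the same experiment. The closest were TMX4, MCAM, ALG1, HSPA8 and CFD, at 0.26, 0.27, 0.29, 0.29 and 0.29. In that order their log2 fold changes with SW-682 were -0.48 ± 0.16, -0.54 ± 0.13, -0.55 ± 0.15, -0.50 ± 0.18 and -0.47 ± 0.17. With pTEADi they were 0.40 ± 0.13, 0.10 ± 0.08, 0.06 ± 0.10, 0.15 ± 0.10 and 0.62 ± 0.12. MCAM, ALG1 and HSPA8 thus shared mainly the lower level with SW-682. TMX4, a membrane thioredoxin, averaged 16.5 ± 3.48 CPM in smTEADi and 23.1 ± 0.68 CPM in Vehicle tumours, and 21.1 ± 2.33 CPM in pTEADi and 15.9 ± 1.51 CPM in Control tumours. MCAM, a cell adhesion molecule, averaged 25.7 ± 2.78 CPM in smTEADi and 37.4 ± 3.98 CPM in Vehicle tumours, and 50.2 ± 0.18 CPM in pTEADi and 46.9 ± 1.52 CPM in Control tumours. Of the 8 other fatty acid oxidation genes, HADHA came closest, at 0.39 and rank 298, then HADHB at 0.40 and rank 404 and ECHS1 at 0.43 and rank 986. SLC25A20, at 0.47, was below the level ranked. CPT2, ACADM, ACADS and ACADVL were at 0.53 to 0.55, with ranks of 5305 to 6157.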

How the data were processed

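Poly-T selected RNA of Cal33 xenograft tumours was sequenced in 12 libraries by the authors. Per the labels, reads were aligned with STAR 2.7.9a to GRCh38 with Gencode 38 models and counted with RSEM 1.3.1. The authors deposited expected counts per gene, unscaled, in 1 table per experiment; between 6.77% and 7.27% of each library's values were fractional. Strand setting and handling of host reads are not given in the sources used here. Libraries held 13576494 to 15433679 counts.

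Testing used counts rounded to whole numbers, R 4.3.3 and edgeR 4.0.16 (filterByExpr with a minimum count of 10, TMM, two-sided quasi-likelihood F test, Benjamini-Hochberg adjusted p of 0.05 over all genes tested), also for the difference of effects in 1 fit of 12 libraries. The SE is the log2 fold change divided by the square root of F. Whether replicates came from separate animals is not in the labels; the p-values reflect the spread among these libraries, which may be technical. Likeness used a pseudocount of 1. Names, MANE transcripts and positions are from Gencode 44 (GRCh38) and promoters from RefSeq.

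The 9 genes and all lists were chosen with earlier results of these data known. Other genes named are, per list and comparison, up to 4 past the threshold with the smallest p, a fixed set of regulators and enzymes, and the 5 genes most like CPT1A. Some genes of the lists are not reported here and are left out of the lists' counts and medians. ETFB, DECR1 and PDK4 were named after their values were seen. Groups were taken from the labels. Replicate numbers were not taken as pairs: deviations of libraries with the same number correlated at -0.179 to 0.171 across genes. Within groups, pairs of libraries differed by 7.43 to 34.2 times counting noise (chi-square per degree of freedom), so none was a duplicate. The tests were first run on simulated data. Alternatives were other scalings, filters and thresholds, DESeq2 1.42.0, limma-voom (limma 3.58.1), unrounded counts, a shared spread, a replicate block and leaving out each library; those for Control against Vehicle and the all-exon length were added after seeing the data.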

Additional observations from a re-analysis of the deposited data

Results flagged for a closer look

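The CPT1A effect of pTEADi exceeded that of SW-682 by 1.34 on the log2 scale (edgeR, 1 fit of 12 libraries, adjusted p = 0.0451). CPT1A was one of 2 genes of 15460 past the threshold for a difference between the inhibitors. CPT1A was lower in 3 of 3 smTEADi libraries than in any Vehicle library, and higher in 3 of 3 pTEADi libraries than in any Control library. Of all genes tested, 17.3% lay wholly lower with SW-682 and 20.3% wholly higher with pTEADi. CPT1A was chosen for this contrast, so the value describes it and is not independent evidence. The fit with DESeq2, on the same libraries, also called CPT1A for the difference, among 43 genes. The CPT1A difference did not pass with a replicate block, at an adjusted p of 0.01 or in 8 of 12 fits without 1 library.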

How the results depend on the processing

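With SW-682, 816 genes passed; 2101 did with no low-count filter, 1893 with DESeq2, 2303 with a spread shared by the 4 groups and 0 at an adjusted p of 0.01, against 4128 at an unadjusted p under 0.05. Leaving out 1 library gave 0 to 1622. It was 0 without smTEADi 3, Vehicle 1 or Vehicle 3. With pTEADi, 3864 passed, 2138 at 0.01 and 2325 to 4379 without 1 library. For the difference, 2 passed, with 377 unfiltered, 43 with DESeq2, 3 with upper-quartile scaling, 0 at 0.01 and 0 to 20 without 1 library. Between Control and Vehicle, 5428 passed, 3010 at 0.01 and 3586 to 5895 without 1 library. The causes were not tested.

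A replicate block gave 0 genes for SW-682, 3707 for pTEADi and 0 for the difference. The labels do not say whether replicate numbers pair the samples. With the block, CPT1A kept its log2 fold changes of -0.88 and 0.46. It did not pass with SW-682 or for the difference (adjusted p = 0.083 and 0.127).

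HADHB with pTEADi did not pass with upper-quartile scaling, no filter or the block, and ACADM passed with SW-682 under the shared spread. The PRKAG2 difference, near 0, turned to -0.011 with limma-voom and -0.0076 with the block. Other reversals came from leaving out 1 library, in values that had not passed: for SW-682, ACADS -0.16 to 0.25, ECHS1 -0.10 to 0.012, PPARD -0.076 to 0.26, CPT1B -0.038 to 0.13, PPARGC1A -0.31 to 0.25, SLC25A20 -0.095 to 0.18, ANGPTL4 -0.63 to 0.40, MLYCD -0.018 to 0.21; for pTEADi, ACADS -0.097 to 0.077; for the difference, ACADS -0.23 to 0.18, PPARA -0.15 to 0.057, CPT1B -0.14 to 0.035, ACSL1 -0.12 to 0.24, CCN1 -0.12 to 0.32, ACAD11 -0.12 to 0.080, ECI2 -0.12 to 0.13, ACSL4 -0.16 to 0.22, PRKAG2 -0.18 to 0.26, ACADM -0.17 to 0.13, HADH -0.11 to 0.032, SLC16A1 -0.17 to 0.21, ACACB -0.071 to 0.55, BDH1 -0.15 to 0.22. Of the 5 genes most like CPT1A, 3 stayed when centred on all 6 libraries of an experiment. SLC25A20 had 37 to 80 counts per library, the fewest of the 9 genes.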
